A study of Homo sapiens with 8 samples.

Results

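A retained-intron transcript is a messenger RNA precursor or processed RNA in which sequence that other transcripts of the same gene splice out has been kept. The transcripts described here are those that GENCODE version 44 annotates with the type retained_intron and that held at least 40 counts summed over the 8 libraries of the experiment. There were 581 of them, from 514 host genes, out of 34123 transcripts of this type in the table, of which 6952 had a count in any library. The members were thus chosen by their annotated type and selected on their total count over both groups, which is a measured value, and the contrast between the groups was not used. RNA came from MOLM-13, a human acute myeloid leukemia cell line. One group of 4 biological replicates carried a doxycycline (dox) inducible shRNA against PTBP1 (shPTBP1, genotype PTBP1 KD in the labels), and the other group of 4 carried a scrambled shRNA (shSCR, labelled shControl and WT). In both groups the shRNA came from a lentivirus. Every transduced cell was marked by mCherry, while ΔLNGFR appeared only once dox had switched the shRNA on, and dox was given to both groups for 9 days. Each group rests on 1 shRNA sequence in 1 cell line, so loss of PTBP1 cannot be told apart from other differences between the 2 kinds of cells.

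PTBP1 is an RNA-binding protein that binds pyrimidine-rich stretches, often near the 3′ end of introns, and is best known for repressing the use of nearby splice sites. An intron that stays in an RNA usually keeps that RNA in the nucleus, brings in an early stop codon that marks it for decay, or delays its translation, and in myeloid cells regulated intron retention is known to accompany granulocyte maturation. Long cDNA reads can cover an intron together with the exons on both sides of it.

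The sequences below are the parts of introns that transcripts called in the tests further down carry across a splice site, for 11 of the 12 called. No such window was read for ATF7IP2-214. They are shown because PTBP1 is known to bind pyrimidine-rich sequence at such places. Each is 50 bases of the GRCh38 reference read 5′ to 3′ on the strand of the gene, and capitals mark every TCTT or CTCTCT, 2 pyrimidine motifs of the kind PTBP1 binds. The first 8 are the last bases of an intron and end at its 3′ splice site, and the last 3 are the first bases of an intron and begin at its 5′ splice site. The windows lie at chr14:88609662-88609711 (ZC3H14-221, plus strand), chr17:59838245-59838294 (VMP1-205, plus), chr17:59839718-59839767 (VMP1-217, plus), chr14:24574811-24574860 (CTSG-202, minus), chr17:59690586-59690635 (CLTC-209, plus), chr7:5528720-5528769 (ACTB-206, minus), chr11:6682816-6682865 (MRPL17-202, minus), chr1:151401189-151401238 (PSMB4-202, plus), chr6:132815089-132815138 (RPS12-202, plus), chr1:153990803-153990852 (RPS27-203, plus) and chr4:15825017-15825066 (CD38-205, plus).
ZC3H14-221: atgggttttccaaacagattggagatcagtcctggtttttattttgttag
VMP1-205: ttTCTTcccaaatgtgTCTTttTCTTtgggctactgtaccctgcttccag
VMP1-217: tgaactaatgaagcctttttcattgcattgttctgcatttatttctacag
CTSG-202: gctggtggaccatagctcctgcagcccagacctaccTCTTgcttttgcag
CLTC-209: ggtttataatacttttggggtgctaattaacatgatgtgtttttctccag
ACTB-206: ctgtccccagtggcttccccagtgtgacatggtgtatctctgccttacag
MRPL17-202: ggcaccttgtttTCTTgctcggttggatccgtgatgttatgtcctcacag
PSMB4-202: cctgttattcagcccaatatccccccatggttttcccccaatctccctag
RPS12-202: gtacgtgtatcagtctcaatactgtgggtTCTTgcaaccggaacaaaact
RPS27-203: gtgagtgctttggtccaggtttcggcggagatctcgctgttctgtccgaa
CD38-205: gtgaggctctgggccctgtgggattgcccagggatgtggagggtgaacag

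In the 8 windows at a 3′ splice site the share of pyrimidines was from 54% in ZC3H14-221 to 72% in VMP1-205 and PSMB4-202. VMP1-205 held TCTT 3 times and CTSG-202 and MRPL17-202 once each, and the other 5 held neither motif. Each transcript was scored in 1 window only. VMP1-217, a single exon, also contains the window shown for VMP1-205, with its TCTT 3 times, but was scored at the next 3′ splice site. The 2 VMP1 transcripts therefore do not differ in carrying that window. In the 3 windows at a 5′ splice site the share was from 38% to 54%, and RPS12-202 held TCTT once. Over all members that cross a 3′ splice site (465 introns, 1 per member), the median share of pyrimidines in this window was 60%, TCTT was found in 50.1% and CTCTCT in 7.74%. Among 66064 introns of the annotation used as background the median was also 60%, with TCTT in 53.1% and CTCTCT in 6.04%. The motifs were searched on the gene's strand and counted with overlaps. The introns of these windows were shorter than the background introns, with a median length of 955 against 1523 bases.

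The libraries held from 1528449 to 1613342 counts. PTBP1 itself, the targeted gene, had 10 to 23 counts per library after shPTBP1 and 64 to 90 after shSCR, and no retained-intron transcript of PTBP1, PTBP2 or PTBP3 reached 40 counts. Of the myeloid markers fixed for this cell line, CD33 (105 to 155 counts), LYZ (402 to 668), CEBPA (238 to 308) and CSF3R (93 to 149) were well counted in all libraries, and MPO (12 to 25) and FLT3 (3 to 12) had low counts. SPI1, a myeloid transcription factor, had 0 or 1. The lymphoid, erythroid and platelet markers CD3E, MS4A1, HBB and PPBP had 0 counts in every library. At this depth 3 counts, the limit that a count of 0 allows, came to between 1.86 and 1.96 CPM (counts scaled to a library total of 1000000). Such limits cover counting error only, since amplified cDNA molecules are not independent.

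Most of these transcripts were counted sparsely. Their median total over the 8 libraries was 91 counts, 257 of the 581 had fewer than 80, and 17 had at least 1000. Together they held 79.9% of all counts on transcripts of the retained_intron type. Compared with all transcripts tested, the 581 members, tested or not, were short, with a median length of 1787 against 2242 bases. They had a median of 4 exons against 8. A median of 432 bases, or 30.7% of the transcript, lay inside introns of the canonical transcript, the representative that Ensembl chooses for each gene. At the limit of the rule, the members just inside were MPV17L2-201, NUP37-203 and WRN-203 with 40 counts each, and ATP5PD-204, CCNL1-215 and COL9A2-205 with 39 each were just outside.

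The annotated type covers several structures. Set against the canonical transcript, 247 members (42.5%) ran through at least 1 whole intron from the exon before it to the exon after it. Among these, 188 kept 1 intron, 59 kept more, and HSPA9-211, from the gene of a mitochondrial chaperone, kept 5. Another 230 members (39.6%) began inside an intron and 61 (10.5%) ended inside one, while 10 did both. In 20 members part of an intron was kept without either end lying in it, 11 had no base in a canonical intron, and 2 were themselves the canonical transcript. The exons of 203 members overlapped an exon of another gene on either strand. In 21 members an exon held a whole small RNA gene of the same strand, a snoRNA in 14 of them. These included DDX5-215, from the gene of an RNA helicase, with MIR3064 and MIR5047, RPL10-212 with SNORA70, and VMP1-205 and VMP1-217 with MIR21. Downstream of the annotated end, the genome had at least 12 A among the next 20 bases for 6.20% of members, tested or not. For all transcripts that passed the filter for testing it was 1.90%. Such runs of A can be primed by oligo-dT in place of a poly(A) tail, and their part in the counts was not tested.

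Within its host gene, the share of counts held by a retained-intron transcript ranged from 0.0295% to 100%, as the mean over the 8 libraries, with a median of 11.3%. For 193 members it was under 5%, and for 74 it was 50% or more. The highest total belonged to RPS23-203, from the gene of a small-subunit ribosomal protein, with 1849, 1996, 1992 and 2132 counts after shPTBP1 and 1924, 1537, 1786 and 1836 after shSCR. It begins inside an intron, of which it keeps 99 bases, and held 87.1% ± 0.795 (SD, n = 4) of the counts of RPS23 after shPTBP1 and 86.4% ± 0.409 after shSCR. RPL37A-201, from the gene of a large-subunit ribosomal protein, held 41.6% ± 1.65 and 42.1% ± 1.55 of its gene. In both genes the share of the 2 groups overlapped and the spread between replicates was below 2 percentage points. The other members with the highest totals were CTSG-202, UBE2V2-204 (73.9% ± 1.42 and 75.6% ± 1.03 of its gene, which encodes a ubiquitin-conjugating enzyme variant), LAMP1-203 (lysosomal membrane protein, 91.5% ± 5.75 and 85.7% ± 1.47), APEX1-205 (DNA repair endonuclease, 21.1% ± 1.29 and 23.8% ± 2.07), RPS12-202 and ENST00000487182, a transcript of ENSG00000124593 whose exons overlap PRICKLE4 and TOMM6 (62.3% ± 1.02 and 59.99% ± 1.92). Apart from CTSG-202 and RPS12-202, none of these 8 was called in either test below. Leaving aside 49 members with missing libraries described further down, the share moved by less than 5 percentage points between the groups in 81.8% of the 532 others.

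The retained-intron transcripts took up 1.10% ± 0.0540 of a library's counts after shPTBP1 and 1.04% ± 0.0737 after shSCR (SD, n = 4 each). By library the share was 1.04%, 1.11%, 1.07% and 1.16% after shPTBP1 and 1.15%, 0.986%, 1.01% and 1.01% after shSCR. The groups overlapped only through shSCR replicate 1, which lay above the other 3 shSCR libraries. The difference of the means, 0.0594 percentage points, was 0.0958 without that library and 0.0370 without shPTBP1 replicate 4. Members that run through a whole intron took up 0.453% ± 0.0319 after shPTBP1 (0.413% to 0.479%) and 0.414% ± 0.00592 after shSCR (0.406% to 0.421%), which also overlapped. Members that begin in an intron were at 0.476% ± 0.00601 and 0.475% ± 0.0431. A smaller number of cells and less RNA per cell cannot be told apart in such bulk libraries.

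The first comparison asked which of these transcripts changed in level after PTBP1 KD. Nearly all that passed the test were higher. ZC3H14-221, RPS12-202, RPS27-203, VMP1-217, VMP1-205, ATF7IP2-214, CTSG-202, PSMB4-202 and MRPL17-202 rose, by 0.38 to 1.22 on the log2 scale apart from ZC3H14-221, which had no count in shSCR, and CLTC-209 fell. Counts were fitted for all transcripts together by edgeR's quasi-likelihood test and a call needed a p under 0.05 after Benjamini-Hochberg adjustment. The filter on low counts left 334 of the 581 members to test. In the other 247 too few libraries reached its minimum, and they were in neither test. The 9 called higher are 2.69% of those tested and the 1 called lower is 0.299%, where of all 10228 transcripts tested 2.44% were called higher and 3.00% lower. The share called higher was thus close to the background, and the share called lower was below it. The groups did not overlap upward in 24 members (7.19%) and downward in 5 of the 334, against 6.48% and 6.62% of all transcripts. Among the members tested, 206 (61.7%) had a log2 fold change above 0 and the median was 0.11. For all transcripts tested these were 5118 of 10228 and 0.00039, with the 10th and 90th percentiles at -0.44 and 0.40. By structure, the median was 0.19 for the members with a whole intron (100 of 137 above 0), 0.0099 for those beginning in an intron (71 of 141) and 0.035 for those ending in one (18 of 33). PSMB4-203 and ZC3H14-221 passed the filter through the shPTBP1 libraries alone and LRP3-203 through the shSCR libraries alone.

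VMP1, an endoplasmic reticulum protein needed to form autophagosomes, had 2 retained-intron transcripts, and both rose. VMP1-217 (ENST00000592790.1, chr17:59837931-59842255, plus strand) is a single exon of 4325 bases that begins in the intron before the last but one exon and runs through the last intron of the gene. It had 39, 38, 49 and 58 counts after shPTBP1 and 27, 22, 17 and 17 after shSCR. The normalized level was 30.5 ± 6.16 CPM and 13.6 ± 2.78 CPM (SD, n = 4; log2 fold change 1.16, SE 0.21, edgeR adjusted p = 0.00490). VMP1-205 (ENST00000587470.2, chr17:59837951-59841551) begins in the same intron but splices out the last intron. It had 20, 19, 19 and 27 counts against 11, 9, 8 and 10, or 14.1 ± 2.43 and 6.24 ± 0.679 CPM (log2 fold change 1.16, SE 0.23, edgeR adjusted p = 0.0103). For both transcripts every shPTBP1 library lay above every shSCR library. Both kept their call with each library left out. The gene as a whole, of which they are part, rose by 0.71 (SE 0.13, edgeR adjusted p = 0.00624). Outside these 2 transcripts VMP1 had 28, 33, 29 and 33 counts after shPTBP1 and 28, 36, 27 and 30 after shSCR, or 20.4 ± 1.91 and 19.9 ± 2.61 CPM. The counts outside the 2 transcripts therefore overlapped between the groups. The share of VMP1-217 in the gene was 46.7% ± 3.84 and 34.1% ± 4.77 (two-sided exact permutation test, p = 0.0286, the smallest that 4 against 4 libraries can give), and that of VMP1-205 was 21.6% ± 1.62 and 15.8% ± 1.79 (exact p = 0.0286). Neither was called in the usage test across transcripts (edgeR adjusted p = 0.889 and nearly 1). The shares rest on the same counts as the level calls, so their exact p values are no separate support.

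The last exon of VMP1 also contains the hairpin of MIR21, at chr17:59841266-59841337, so the hairpin lies in exons of both transcripts and of the canonical VMP1-201. MIR21 is an abundant microRNA of many tumors. Its mature sequence in RefSeq (GRCh38.p14, chr17:59841273-59841294, plus strand) is shown because the 2 transcripts carry it, with the seed, bases 2 to 8, in capitals.
hsa-miR-21-5p: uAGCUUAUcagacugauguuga
These cDNA libraries do not measure the mature microRNA.

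ZC3H14-221 (ENST00000557491.1, chr14:88608422-88612979, plus strand) keeps a whole intron of ZC3H14, which encodes a zinc finger protein that binds polyadenosine RNA. It had 16, 15, 16 and 12 counts after shPTBP1 and 0 in all 4 shSCR libraries. Taking 3 counts over the shSCR group as the most that counting error allows, it was at least 19.4-fold higher after shPTBP1 (edgeR adjusted p = 0.000549). It is among the 49 members with missing libraries described further down, whose 0 counts did not follow the groups. This limit and that on its share below therefore cover counting error only, and the true difference may be smaller. It held 27.1% ± 1.16 of the counts of ZC3H14 after shPTBP1 and 0% after shSCR, where 0 of 34 to 56 counts of the gene allow a share of up to 8.82% in the shallowest library. Its usage was called as well (edgeR adjusted p = 1.73e-06). It passed the filter on low counts through the shPTBP1 libraries alone, so with 0 counts after shSCR it had to differ to be tested at all, and with a minimum mean of 10 counts it was not tested. The rest of the gene had 40, 42, 42 and 34 counts against 56, 51, 34 and 44, which overlapped, and the gene as a whole was not called (log2 fold change 0.25, adjusted p = 0.424). Its exons overlap those of EML5 on the opposite strand, and whether the counting used strand is not given in the sources used here. The genome has 16 A in the 20 bases after its annotated end.

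The ribosomal protein genes were the host group with the most members. RPS12-202 (ENST00000484616.2, chr6:132814569-132817564) keeps 136 bases from the start of an intron of RPS12, a small-subunit protein. It had 423, 480, 442 and 429 counts after shPTBP1 and 319, 306, 322 and 305 after shSCR, without overlap, and rose by 0.51 (SE 0.074, edgeR adjusted p = 0.00123). The rest of RPS12 stood at 2975 ± 269 CPM after shPTBP1 and 2453 ± 236 after shSCR, with overlapping groups, and the gene rose by 0.31 (SE 0.076, adjusted p = 0.0340). RPS27-203 (ENST00000493224.5, chr1:153990763-153992145) keeps 232 intron bases, from the 5′ splice site, of RPS27, another small-subunit protein. It had 160, 187, 174 and 184 counts against 133, 136, 131 and 126 and rose by 0.43 (SE 0.085, edgeR adjusted p = 0.00861), again without overlap. It held 92.4% ± 0.663 and 90.1% ± 3.91 of the counts of its gene, which rose by 0.40 (adjusted p = 0.0193). Both transcripts kept their call with each library left out. In all, 37 members lay in ribosomal protein genes. Of the 23 tested, 2 were called higher and none lower, and 18 had a log2 fold change above 0 with a median of 0.31, where of all transcripts tested 2.44% were called higher, 3.00% lower and 5118 of 10228 were above 0. RPL14-208 was at 0.31 (adjusted p = 0.0639) and RPL22-206 at -0.04 (adjusted p = 0.901), and neither was called. Of the 75 ribosomal protein genes tested as whole genes, 5 were higher, RPS12 and RPS27 among them, and none lower, against 2.36% higher and 3.19% lower over all genes tested. The median log2 fold change of these 75 genes was 0.12, against -0.00014 for all genes. An upward lean was thus also seen in the ribosomal protein genes as a whole, with or without a member. These genes have many processed pseudogenes, so reads that match more than 1 place make their counts uncertain.

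MRPL17-202 (chr11:6681951-6683296, minus strand) keeps an intron of MRPL17, a protein of the large mitochondrial ribosomal subunit. It had 69, 62, 63 and 61 counts after shPTBP1 and 37, 34, 45 and 49 after shSCR, without overlap (log2 fold change 0.64, SE 0.15, edgeR adjusted p = 0.0222). Outside this transcript the gene had 33, 34, 35 and 23 counts against 26, 27, 25 and 41, which overlapped. MRPL17 as a whole had a log2 fold change of 0.44 (SE 0.14) and was not called (edgeR adjusted p = 0.0870). The share of the transcript was 67.3% ± 3.87 and 58.3% ± 4.38 (two-sided exact permutation test, p = 0.0571). The 2 groups met at a share of 64.3%, and the usage test did not call the transcript. For the level of MRPL17-202 the adjusted p ranged from 0.0240 to 0.0682 with 1 library left out. It passed 0.05 without any 1 of the shPTBP1 libraries or without shSCR replicate 1 or 2.

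ATF7IP2-214 (chr16:10386058-10387741, plus strand) ends inside an intron of ATF7IP2, a nuclear protein gene, and had 27, 25, 23 and 23 counts after shPTBP1 and 12, 11, 12 and 7 after shSCR. The groups were far apart, at 16.3 ± 1.15 and 6.92 ± 1.59 CPM (log2 fold change 1.22, SE 0.22, edgeR adjusted p = 0.00555). The call held with each library left out. The other transcripts of the gene had 17, 9, 18 and 24 counts against 17, 15, 17 and 15. As with VMP1 and MRPL17, the counts outside the retained-intron transcript overlapped between the groups. Its share was 59.98% ± 10.4 and 39.2% ± 4.95 (two-sided exact permutation test, p = 0.0286, the smallest possible), and the usage test did not call it. The share rests on the same counts as the level call, so its p is no separate support.

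CTSG-202 (ENST00000552252.1, chr14:24573522-24576250, minus strand) keeps an intron of 454 bases of CTSG, the gene of cathepsin G, a serine protease of myeloid granules. It had 749, 891, 888 and 824 counts after shPTBP1 and 625, 742, 584 and 639 after shSCR, and the normalized levels of the 2 groups overlapped, at 557 ± 54.8 and 426 ± 42.0 CPM. On the log2 scale its change was 0.38 (SE 0.086, edgeR adjusted p = 0.0178). With 1 library left out the adjusted p ranged from 0.00796 to 0.0721, and it passed 0.05 without shPTBP1 replicate 2 or 3 or without shSCR replicate 1, 3 or 4. Here the rest of the gene was also higher, at 2913 ± 39.7 CPM against 2374 ± 183 without overlap, and CTSG as a whole rose by 0.32 (SE 0.054, adjusted p = 0.00486). The share of the transcript was 16.0% ± 1.22 and 15.3% ± 1.85, with overlapping groups. CSF3R-204, in the gene of the granulocyte colony-stimulating factor receptor, was the only other member among the myeloid genes listed and had 24, 21, 21 and 22 counts against 14, 17, 18 and 10 (log2 fold change 0.58, SE 0.22, adjusted p = 0.159).

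PSMB4-202 (chr1:151400901-151401937, plus strand) begins in an intron of PSMB4, a subunit of the proteasome core, and had 40, 35, 42 and 48 counts after shPTBP1 and 27, 26, 25 and 20 after shSCR. It rose by 0.76 (SE 0.17, edgeR adjusted p = 0.0190) while holding only 1.31% ± 0.246 and 0.852% ± 0.144 of the counts of its gene. PSMB4 as a whole was not called (log2 fold change 0.15, adjusted p = 0.289). Without shPTBP1 replicate 3 or 4 or without shSCR replicate 4 the transcript lost its call, with adjusted p values up to 0.0662. PSMB4-203, which keeps a whole intron, had 11, 12, 11 and 14 counts against 7, 7, 4 and 5 (log2 fold change 1.06, SE 0.32, adjusted p = 0.0807). It passed the filter on low counts through the shPTBP1 libraries alone, so its difference is no support for PSMB4-202.

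The transcript that fell, CLTC-209 (ENST00000498711.1, chr17:59689156-59695112, plus strand), begins in an intron of CLTC, the gene of the clathrin heavy chain. It had 20, 0, 0 and 0 counts after shPTBP1 and 28, 35, 32 and 34 after shSCR. On the log2 scale its change was -2.65 (SE 0.68, edgeR adjusted p = 0.0377), and its share of the gene was 1.51% ± 3.02 against 11.7% ± 1.88, also called in the usage test (edgeR adjusted p = 0.0159). By counting error alone, a count of 0 allows a share of up to 1.25% of CLTC in those 3 libraries. CLTC-209 is also among the 49 members with missing libraries described further down, so this limit may not hold. With 1 library left out, the level call held only without shPTBP1 replicate 1, which held all counts of its group. The fitted change was then -8.01, a value that depends on the fit because the remaining shPTBP1 libraries were at 0, and limma-voom on all libraries gave -4.68. It was lost when any 1 of the other 7 libraries was left out, with adjusted p values up to 0.110, and under DESeq2 or a minimum mean of 10 counts, with values up to 0.567. The usage call was lost without shPTBP1 replicate 2, 3 or 4 or shSCR replicate 2, 3 or 4, with adjusted p values up to 0.0995. The rest of CLTC had 311, 240, 260 and 293 counts against 285, 251, 209 and 245, which overlapped.

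The second comparison asked which of these transcripts changed relative to the other transcripts of their gene. Of 303 members tested with edgeR's diffSpliceDGE, 3 were used more after shPTBP1 (0.990%) and 1 less (0.330%). Of all 5464 transcripts tested 1.08% were used more and 0.695% less, so these shares were close to or below the background. ZC3H14-221 and CLTC-209 were described above and were the 2 called in both tests, which together called 12 members. An exact permutation test of each share over the 8 libraries cannot go below p = 0.0286, and after adjustment over all transcripts its smallest p was 0.268, so that it called no transcript at all and says nothing for or against these calls. Its unadjusted p was under 0.05 for 29 of the members (9.57%, against 10.7% of all transcripts). For limma's diffSplice, which called 11 of the 303 members, the share of all transcripts called is not given here.

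CD38-205 (ENST00000511430.1, chr4:15778312-15826086, plus strand) ends 1070 bases into the intron that begins with the last sequence shown above. CD38 is a surface enzyme of blood cells that consumes NAD. The transcript had 32, 17, 25 and 33 counts after shPTBP1 and 22, 20, 14 and 12 after shSCR, and these levels overlapped (log2 fold change 0.66, SE 0.25, adjusted p = 0.159). The rest of CD38 had 73, 96, 76 and 90 counts against 163, 141, 120 and 120, and did not overlap. CD38 as a whole fell by 0.45 on the log2 scale (SE 0.11, edgeR adjusted p = 0.0321). The share of CD38-205 was 24.3% ± 6.59 after shPTBP1 and 10.96% ± 1.501 after shSCR, with 15.04% in the lowest shPTBP1 library and 12.4% in the highest shSCR library (edgeR usage adjusted p = 0.00846). The usage call was lost without shPTBP1 replicate 1 or 4, with an adjusted p of up to 0.0689, and with no filter on low counts it was 0.0578. The genome has 11 A in the 20 bases after its annotated end.

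ACTB-206 (ENST00000462494.5, chr7:5527156-5530601, minus strand) keeps an intron of 441 bases of ACTB, the gene of beta-actin. It had 16, 16, 19 and 36 counts after shPTBP1 and 6, 2, 13 and 11 after shSCR, out of 19940 to 25976 counts of ACTB in a library. Its share was 0.0995% ± 0.0447 and 0.0344% ± 0.0204, without overlap (edgeR usage adjusted p = 0.00325). The level was not called (log2 fold change 1.44, SE 0.43, adjusted p = 0.0723), nor was the gene (log2 fold change -0.02, adjusted p = 0.916). Without shPTBP1 replicate 4, which had 36 of the 87 counts of that group, the usage was not called (adjusted p = 0.260). Without that library only 1 member, ZC3H14-221, was called in the usage test.

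The third comparison set each transcript beside its host gene. Of the 494 host genes tested, 19 (3.85%) were higher and 15 (3.04%) lower after shPTBP1, against 2.36% and 3.19% of all 7597 genes. These 34 calls were 16, 13 and 17 without shPTBP1 replicate 2, 3 or 4 and 18, 22 and 19 without shSCR replicate 1, 2 or 4. The median log2 fold change was 0.033 for the host genes and -0.00014 for all genes. Of the 334 members tested, 195 (58.4%) lay above their host gene, and the median of the difference between the log2 fold changes was 0.054. A member's counts are part of its gene's counts, so the 2 values are not independent, least of all where the member holds most of the gene.

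**Figure D1:**
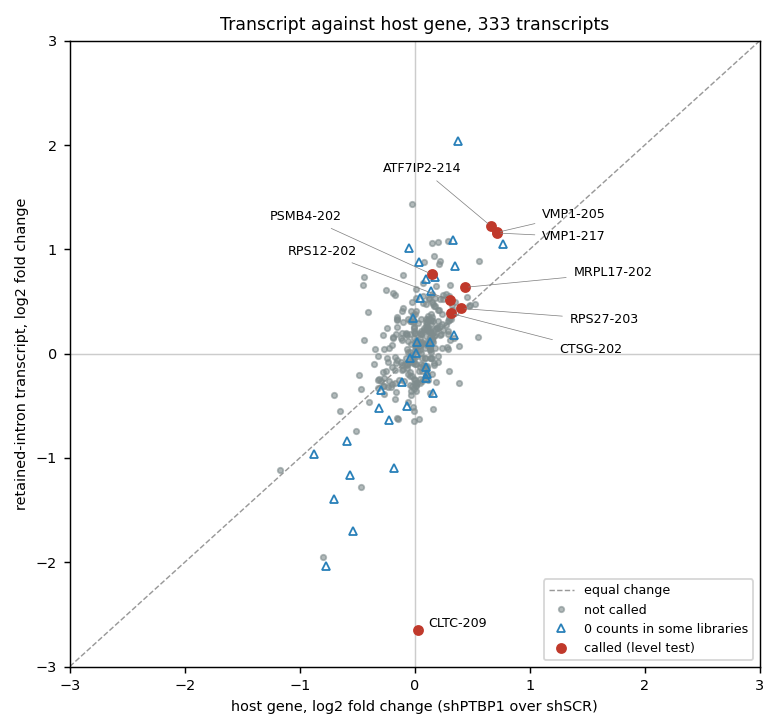
Log2 fold change of each tested retained-intron transcript (y axis) against that of its host gene (x axis), shPTBP1 over shSCR, for 333 transcripts. ZC3H14-221 is left out because it has no count in shSCR. Red points were called in the level test, blue triangles are transcripts at 0 in some libraries, and the dashed line marks equal change. VMP1-205, VMP1-217 and ATF7IP2-214 lie above the line in genes that rose, and CLTC-209 lies far below a gene at 0.03.

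Genes of glycolysis, several of which fell, were looked at next. Of 22 glycolysis genes tested 12 were lower after shPTBP1 and none higher (3.19% and 2.36% of all genes), among them SLC2A1, a glucose transporter (-0.70, adjusted p = 0.0161). These counts cover the whole list, not only the genes with a member. The list held 8 retained-intron members, of which 5 were tested, and none was called. Of the host genes of the members named next, ALDOA (edgeR adjusted p = 0.112), ENO1 (0.187) and LDHB (0.360) were not called. ALDOA-212 in the aldolase gene had a log2 fold change of -0.44 (adjusted p = 0.103), LDHB-206 of -0.29 (adjusted p = 0.317) and ENO1-210 in the enolase gene of 0.15 (adjusted p = 0.711). SLC2A1-215, with 46 and 61 counts over the groups, was at -0.39 (adjusted p = 0.454) and held 27.5% of its gene after shPTBP1 and 21.9% after shSCR. The median over the tested members was -0.29. For translation factors, 12 members were found and 8 tested, with 6 above 0, a median of 0.23 and none called. EEF1G-203 was at 0.15 (adjusted p = 0.788) while EEF1G, an elongation factor gene, rose by 0.34 (adjusted p = 0.0129).

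Splicing factor genes are known to carry retained introns and poison exons of their own, so their members were listed by role. Of 133 genes of the splicing, export and decay lists that were tested, 3 were higher (PTBP2, TRA2B and RBM39) and 5 lower (PTBP1, SRSF2, SF3B4, PRPF6 and DDX23), against 2.36% and 3.19% of all genes, so these shares were close to the background. Their retained-intron transcripts were few, and none of them was called. Among the SR protein genes, which promote exon recognition, 5 members were found. TRA2B-211 had 20, 21, 17 and 16 counts after shPTBP1 and 17, 4, 9 and 10 after shSCR (log2 fold change 0.89, SE 0.32, adjusted p = 0.140), and TRA2B as a gene rose by 0.56 (adjusted p = 0.0242). SRSF5-207 was at 0.36 (adjusted p = 0.562), and SRSF3-207, SRSF10-213 and TRA2B-214 were too sparse to test. Among the hnRNP genes, to which PTBP1 belongs, 4 members were found. HNRNPU-202 had 71 and 54 counts over the groups and 21.9% against 12.3% of its gene (log2 fold change 0.40, adjusted p = 0.523), and PCBP2-209 was at -0.31 (adjusted p = 0.623).

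Of the 5 members in genes of 3′ splice site recognition, DDX39B-215 (302 and 250 counts, log2 fold change 0.28, adjusted p = 0.176) and DDX39B-219 (129 and 125 counts, 0.06, adjusted p = 0.904) belong to an RNA helicase of early spliceosome assembly. SF3B3-206 was at 0.19 (adjusted p = 0.822), and RBM39-223 had 40 and 32 counts and SF1-212 33 and 37. SNRNP200-208, in the gene of a helicase of the U5 particle, had 572 and 619 counts (log2 fold change -0.10, adjusted p = 0.705). The other lists gave NONO-211, THOC1-206, SRRM2-217, EXOSC8-208, EXOSC8-210 and CLK3-206, each with under 100 counts. No member lay in the genes of nonsense-mediated decay.

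A further feature of these transcripts was their absence from single libraries. In 49 members (8.43%) at least 1 library had 0 counts while the libraries above 0 had a median of at least 15, a limit chosen after the values were seen. Among transcripts of other types with at least 40 counts the same was true of 2.34% of 13228, including 2.25% of protein coding and 2.81% of lncRNA transcripts. The share was 5.25% (20 of 381) for transcripts of protein coding genes without a defined coding sequence, the type nearest to the retained introns in this respect. The types were not matched for total count or for the number of transcripts per gene. The 0 counts did not follow the groups: 85 of 196 values were 0 after shPTBP1 and 80 of 196 after shSCR, with 16 to 25 per library. In 32 of the 49 there was a 0 in both groups, in 9 only after shPTBP1 and in 8 only after shSCR. NBEAL1-204 had 911 counts in shPTBP1 replicate 4 and 789 in shSCR replicate 1 and 0 in the other 6 libraries. Its exons overlap RPL12P16, a processed pseudogene of the ribosomal protein gene RPL12. NEK9-205, in a kinase gene, had 224, 239, 0 and 0 counts after shPTBP1 and 271, 190, 208 and 0 after shSCR. CFL1-210, in the gene of the actin-severing protein cofilin, had 209, 204, 0 and 220 against 0, 165, 226 and 257. These 3 have the highest totals of the 49 and were named after their values were seen.

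In libraries where such a transcript was at 0, the other transcripts of its gene mostly did not take up its counts. The log2 ratio of the rest of the gene between libraries without and with the transcript had a median of 0.017, and the gain came to a median of 1.68% of the transcript's own level. It was within 25% of that level in either direction for 34 of the 49 and reached 50% or more for 5. For NEK9-205, at 144 CPM where counted, the rest of the gene was at 27.3 CPM without it and 28.0 CPM with it. For CFL1-210, at 136 CPM where counted, the rest of the gene was at 113 and 121 CPM. In these genes a 0 for the transcript went with a lower count of the gene as a whole.

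Counts in only 1 group were found for 7 members, all among these 49, and 5 of the 7 rest on 1 or 2 libraries. The same number over transcripts of other types is not given here, so the 7 are not read as a result about this type. CCNK-203, in a cyclin gene, had 0, 95, 0 and 85 counts after shPTBP1 and none after shSCR. ARIH1-205, in a ubiquitin ligase gene, had none after shPTBP1 and 101, 0, 70 and 0 after shSCR. SETDB1-212 and LLGL2-206 were counted in 1 shPTBP1 library each, TASOR-203 in 1 shSCR library and NOC2L-204 in 3 shSCR libraries. DKC1-211, which holds SNORA56, came near to such a split with 94, 88, 83 and 86 counts against 0, 0, 85 and 0 and was not called (log2 fold change 2.03, SE 0.79, adjusted p = 0.173). MLX-206 went the other way, with 49, 0, 0 and 0 counts against 62, 54, 38 and 50 (log2 fold change -2.04, SE 0.77, adjusted p = 0.159). Without the 49 members, 2 of the 4 usage calls, ACTB-206 and CD38-205, were left, and 190 of the 300 level-tested members (63.3%) had a log2 fold change above 0, with a median of 0.13.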

How the data were processed

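The authors made nanopore cDNA libraries (SQK-PCS109 with SQK-PBK004) from total RNA of MOLM-13 cells, aligned the reads to hg38 with minimap2, kept those with a mapping quality above 50 and deposited whole-number counts per annotated transcript from StringTie. Versions and annotation are not given in the sources used here. The authors' second deposited table holds CPM, each count scaled to a library total of 1000000 without division by length, which the values met to within 1e-06.

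Transcripts were matched by Ensembl identifier to GENCODE version 44 (252562 of 254070), and groups were taken from the labels, with 4 libraries each of 1528449 to 1613342 counts. Levels were tested with edgeR 4.0.16 (TMM, filterByExpr with a minimum count of 10, quasi-likelihood test, group as the only term), usage with diffSpliceDGE, and host genes on summed counts. Calls used a Benjamini-Hochberg adjusted p under 0.05 over all features tested. Standard errors (SE) were obtained from the F statistic, as the absolute log2 fold change over its square root. Printed CPM are TMM-normalized. Single shares were compared by two-sided exact permutation tests of 4 against 4 libraries. The study used IsoformSwitchAnalyzeR for usage, which was not run here. Structures were compared with the Ensembl canonical transcript, and windows were read from GRCh38 for introns of at least 60 bases.

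The members, gene lists and tests were chosen with earlier results of these data known. Members named are those called in either test, the 8 with the highest counts, up to 6 per gene list by total count, and those at the limit of 40 counts. Others were named after their values were seen. A few markers and list members are not reported here. Tests were tried on simulated counts. Alternatives were DESeq2 1.42.0, DESeq2's size factors in edgeR, limma 3.58.1 (voom, diffSplice, and trend on log2 of the CPM table plus 1), other filters and count limits, a replicate block and leaving out each library. The software was R 4.3.3, Python 3.11.15, matplotlib 3.10.9, pysam 0.24.0, scipy 1.17.1, pandas 2.3.3 and numpy 2.4.6.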

Additional observations from a re-analysis of the deposited data

Results flagged for a closer look

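In 38 groups of 4 libraries (18 named members and the share of each library on all members), 6 had a highest or lowest library far from the other 3 by Dixon's ratio, the gap to the nearest library divided by the range of the group (above the 95% critical value for 4 libraries). Chance flags about 1 in 20 groups. The ratio was 0.896 for RPS12-202 in shSCR, where replicate 3 was highest, 0.976 for PSMB4-202 in shSCR, where replicate 4 was lowest, and 0.932 for RPS23-203 in shSCR, where replicate 2 was lowest. It was 0.961 for VMP1-205 in shPTBP1, where replicate 4 was highest, and 1.00 for CLTC-209 in shPTBP1, whose counts all came from replicate 1. For the percent of a library on all members in shSCR the ratio was 0.843, with replicate 1 at 1.15% and the other 3 between 0.986% and 1.01%.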

How the results depend on the processing

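With all members and libraries 10 members were called in level, 4 in usage and 34 host genes. With 1 library left out these were 7 to 15, 1 to 5 and 13 to 35, with the fewest usage calls without shPTBP1 replicate 4 and the fewest host genes without shPTBP1 replicate 3. With no filter on low counts 29 of 578 members tested were called in level (20 higher and 9 lower, the first 10 among them). The shares of all transcripts called under the alternatives are not given here. Changes in these numbers are therefore not read as a result about retained-intron transcripts. For usage, limma's diffSplice called 11 members and 2 calls were left without the members at 0 in some libraries, an alternative added after the data were seen. The last removes ZC3H14-221 and CLTC-209 by its construction, and for the other changes the cause was not tested. An exact permutation test of the shares called 0 of 303 (29 with an unadjusted p under 0.05), but with 4 against 4 libraries its smallest adjusted p was 0.268, so it is void as a check of the usage calls. DESeq2 called 12 members in level, 9 of them among the 10, and gave an adjusted p for 488 of the 581. Another normalization moved the median log2 fold change of all transcripts from 0.00039 to 0.0021. None of the 10 level calls and 4 usage calls turned its direction in a fit that gave it a value. Other named members were not followed through the alternatives. The difference of 0.0594 percentage points in the share of a library, shPTBP1 minus shSCR, lay between 0.0370 and 0.0958 with 1 library left out and was 0.0271 without the 5 highest members.

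With the replicate number as a block 7 members were called in level, 3 in usage and 26 host genes, 24 of them among the 34. MRPL17-202 (adjusted p = 0.0569), PSMB4-202 (0.0605) and CLTC-209 (0.0914 for level and 0.197 for usage) were then not called, and no other of the level and usage calls changed. The numbers were not taken to pair the libraries, because deviations from the group means correlated between -0.0328 and 0.00889 across libraries of the same number.

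The filter on low counts kept 247 of the 581 members out of both tests, because too few libraries reached its minimum. NBEAL1-204, with 1700 counts in total, was among them.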

Other observations

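RPL12, the parent gene of the pseudogene inside NBEAL1-204, had 50 to 114 counts per library over its 5 annotated transcripts, fewer than the 911 and 789 counts of NBEAL1-204 in the 2 libraries where that transcript was counted. The pseudogene RPL12P16 itself had 0 or 1 count in each library.

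XRCC5-209, which begins in an intron of XRCC5, the gene of a subunit of the Ku heterodimer of DNA end joining, had 135, 146, 192 and 137 counts after shPTBP1 and 236, 176, 157 and 221 after shSCR. It was chosen after its values were seen. Its share of the gene was 32.2% ± 4.14 against 41.3% ± 3.12 (SD, n = 4) without overlap (two-sided exact permutation test, p = 0.0286), while the gene had a log2 fold change of 0.01. It was called in neither test (edgeR adjusted p = 0.170 for the level and 0.136 for the usage).

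LYST-207, in the gene of a lysosomal trafficking regulator that rose by 0.48 (edgeR adjusted p = 0.0243), had a total of 90 counts after shPTBP1 and 25 after shSCR and was at 0 in 5 of the 8 libraries, so it was too sparse to test.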
